A study of Mus musculus with 9 samples.

Results

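Epithelial junction and polarity genes encode the proteins that seal epithelial cells to each other and give them a top and a bottom. A list of 32 such genes was looked up by symbol in a table of 16070 gene rows measured by RNA sequencing in mouse embryos, and all 32 were present. The rule matches symbols and uses no measured value, but the list itself was chosen with earlier results of these data known. All 32 also passed the filter on low values that left 11850 genes for testing, which asked for at least 1 FPKM (fragment counts scaled by transcript length and library size) in at least 3 libraries.

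An adherens junction joins neighbouring cells through E-cadherin, which catenins link to the actin cortex. A desmosome does the same through desmosomal cadherins, which desmoplakin links to keratin filaments, and a tight junction closes the gap between cells with claudins and occludin. The Par and Crumbs complexes mark the apical side of the cell and the Scribble, Dlg and Lgl proteins mark the basolateral side. In the blastocyst the outer epithelium is the trophectoderm, whose tight junctions let the cavity hold fluid, and outer cells with an apical domain are known to keep Yap active.

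The study compared wild-type C57BL/6 embryos with embryos carrying a histidine in place of arginine at residue 17 of histone H3 (H3R17H) and with embryos lacking Carm1, the arginine methyltransferase that acts on that residue. Its title names editing by CRISPR-Cas9, and the question concerns Yap signalling and early development. Each group has 3 libraries, all taken from embryos at embryonic day 4.5, which the labels date 4.5 days after microinjection, and cultured in vitro. The extract text speaks of cDNA from single cells derived from embryos. Nothing says that the 3 libraries of a group came from separate embryos. Under the H3R17H and Carm1-/- labels only replicate 1 carried Y-linked transcripts (values below), so it was not a technical copy of the others there. Whether the remaining libraries of a group share an embryo cannot be told. Each p-value thus reflects only library-to-library spread, which may be technical in part. WT embryos were C57BL/6 with no edit named, the H3R17H group is labelled as a substitution with no allele or histone gene copy given, and the Carm1-/- group as a homozygous loss with no allele given.

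The targeted gene did not match the labels. Carm1 had 8.86, 7.08 and 6.65 FPKM in WT replicates 1 to 3. Under the H3R17H label it had 1.88, 0.0215 and 1.22 FPKM, and under the Carm1-/- label 6.44, 12.7 and 9.52 FPKM. The low values thus lay in the libraries labelled H3R17H, whose column names carry the word Carm, while the column names of the libraries labelled Carm1-/- carry the word Hist. The log2 difference from WT was -2.18 (SE 0.42, adjusted p = 0.169, limma) for the H3R17H label and 0.27 (SE 0.42, adjusted p = 0.829, limma) for the Carm1-/- label. Both groups are therefore named below by their titles, and every direction given for the libraries labelled H3R17H or Carm1-/- depends on those titles.

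Libraries also differed within groups. Summed Y-linked transcripts reached 30.7 to 35.7 FPKM in the 3 WT libraries, 36.6 FPKM in H3R17H replicate 1 and 28.1 FPKM in Carm1-/- replicate 1, but at most 0.01 FPKM in the other 4 libraries, so embryo sex and group are not balanced. Xist, made from the inactive X chromosome, was at 0.187 to 0.427 FPKM in WT and 0.259 FPKM in Carm1-/- replicate 1. It was at 4.84 FPKM in H3R17H replicate 1 and at 16.6 to 32.5 FPKM in the other 4 libraries. The sex term used below counts H3R17H replicate 1 with the libraries that carry Y-linked transcripts. All 15 trophectoderm markers were in the table and 14 were tested, of which 12 had a lower mean of log2(FPKM + 1) than WT under each label. Their summed level ran from 5723 to 8885 FPKM in WT, from 1643 to 4650 FPKM under the H3R17H label and from 2073 to 9281 FPKM under the Carm1-/- label, where replicate 1 holds the highest value. Krt8 and Krt18 made up most of each sum. Gata2, a trophectoderm factor of low level, was at 1.62 to 3.91 FPKM in WT. It was listed at 0 in replicates 2 and 3 of both other labels. Gata3, a more abundant marker, was lower but still present. It had 277 to 369 FPKM in WT, 147 to 219 FPKM under the H3R17H label and 73.9 to 276 FPKM under the Carm1-/- label. Tfap2c and Krt7 lay above WT, with log2 differences of 0.61 and 0.13 under H3R17H and 0.16 and 0.91 under Carm1-/-. The signs of 0.13 and 0.16 turned under some alternatives. Epiblast markers summed to 4419 to 6327, 4198 to 4382 and 4884 to 6463 FPKM in the same order, and primitive endoderm markers to 213 to 275, 158 to 193 and 119 to 293 FPKM. Dppa5a made up most of each epiblast sum, at 4144.5 to 6119, 3907 to 4104 and 4612 to 6188 FPKM. By log2 difference from WT, 7 of the 11 epiblast markers were lower and 4 higher under the H3R17H label. Under the Carm1-/- label 6 were lower and 5 higher. Fibroblast markers stayed at or below 1.59 FPKM with 1 of 6 in the table. Blood markers, 2 of 6 in the table, were mostly Cd68, a macrophage gene also made elsewhere, at 13.3 to 25.2 FPKM in WT and, above all WT libraries, at 25.7 to 61.9 FPKM under the H3R17H label and 25.8 to 65.1 FPKM under the Carm1-/- label. Its log2 differences were 1.21 (SE 0.42, adjusted p = 0.275, limma) and 1.39 (SE 0.42, adjusted p = 0.293, limma). Oocyte and follicle markers, 3 of 8 in the table, summed to at most 1.31 FPKM in WT, 1.32 FPKM under the H3R17H label and 22.1 FPKM under the Carm1-/- label, mostly from Zp3. The part of these markers and of sex in the values below was not tested. In such libraries fewer cells of a type and less RNA per cell cannot be told apart.

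In WT embryos the members spanned levels from 659 FPKM for Epcam to 2.40 FPKM for Scrib. Epcam, an adhesion molecule of epithelial surfaces, stood at the 99.1st percentile of tested genes (659 ± 73.6 FPKM, SD, n = 3). Cldn7, a claudin, had a mean of 319.7 ± 64.4 FPKM (SD, n = 3), and Ctnna1, the alpha-catenin that ties cadherin to actin, had 181 ± 41.8 FPKM (SD, n = 3). Cldn4, F11r, Rhoa and Cldn6 followed at 132, 126, 94.7 and 92.4 FPKM, with SDs of 31.9, 9.77, 6.46 and 26.6 FPKM that leave their order unresolved. Cdh1, which encodes E-cadherin, and Ctnnb1, which encodes beta-catenin, had near-equal means of 67.7 ± 5.17 and 67.6 ± 2.38 FPKM (SD, n = 3). At the low end stood the basolateral genes Llgl2, Dlg1 and Scrib at 5.68, 4.47 and 2.40 FPKM. FPKM is scaled by transcript length, so these levels can be set beside each other. Prkcz led the polarity genes at 30.9 FPKM, and the others of that kind lay between 15.6 FPKM for Pard6b and the value of Scrib. The lowest of the 4 claudins was Cldn3 at 21.5 FPKM, while Ocln and Marveld2 stood at 10.1 and 6.09 FPKM.

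**Figure D1:**
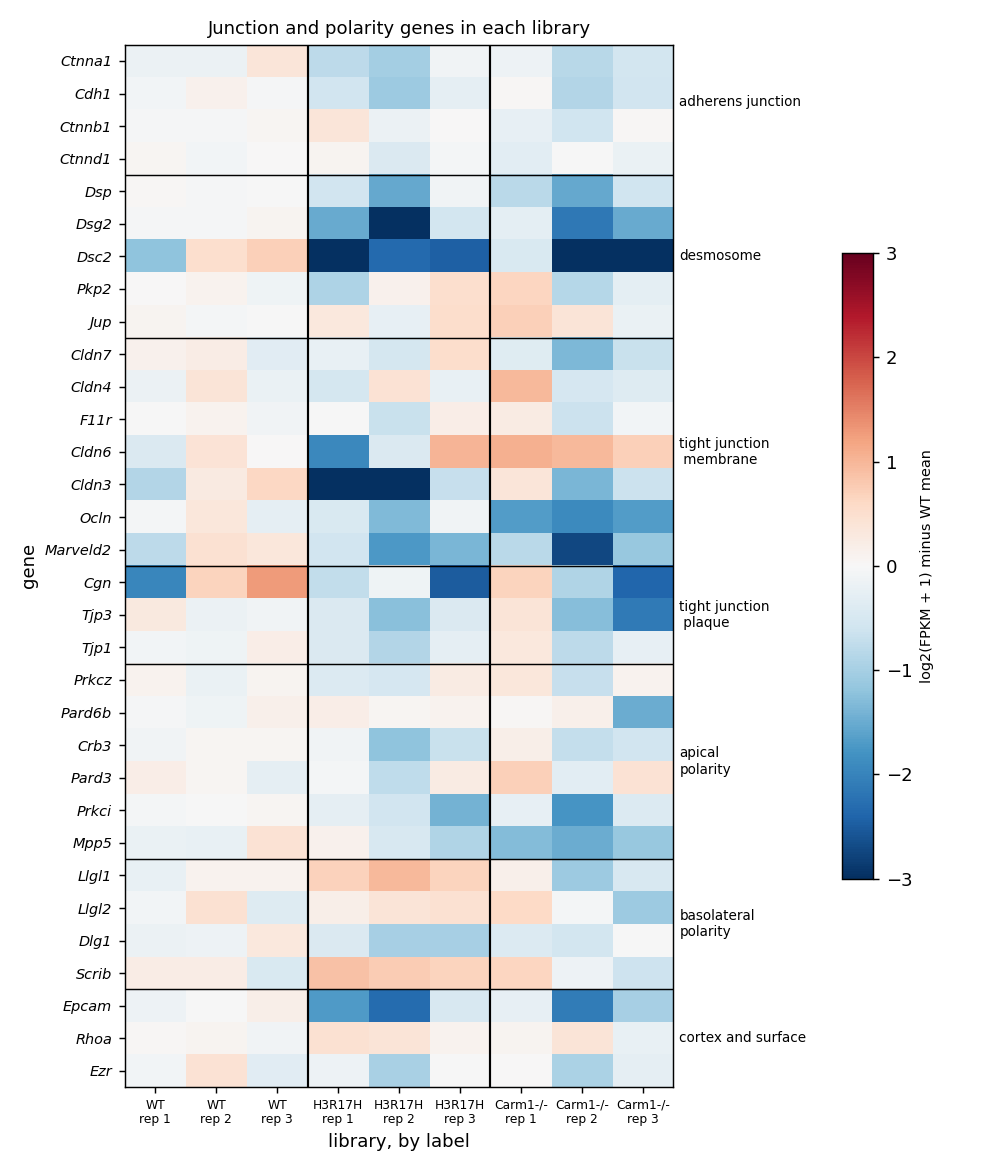
Heat map of log2(FPKM + 1) minus the WT mean for the 32 genes (rows, by role) in the 9 libraries (columns, by label and replicate). Blue is below and red above the WT mean, and the colour scale stops at 3 in either direction. Most cells of H3R17H replicate 2 and of Carm1-/- replicates 2 and 3 are blue. Carm1-/- replicate 1 has 11 members below and 13 above all WT libraries, against 31.9% and 29.4% of tested genes.

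Across the list, more members lay below WT than above it in both comparisons, and none passed the test. In the H3R17H label 25 members had a lower and 7 a higher mean of log2(FPKM + 1) than WT, where 52.3% of all tested genes were lower. The median log2 difference over the members was -0.44, against -0.03 over all tested genes. In the Carm1-/- label 27 were lower and 5 higher, where 53.7% of tested genes were lower, with a median of -0.42 against -0.04. Directions of both medians held under every alternative tried, between -0.54 and -0.11 and between -0.65 (without Carm1-/- replicate 1) and -0.17 (with a sex term). Both comparisons use the same 3 WT libraries, so their likeness is not independent.

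At an adjusted p of 0.05 in limma, 0 members and 0% of all tested genes were called in either comparison. At an unadjusted limma p under 0.05, 6 members were lower under the H3R17H label, where 7.75% of tested genes were, and 1 was higher, where 6.41% were. Under the Carm1-/- label 7 were lower, against 6.19% of tested genes, and 0 were higher, against 5.25%. Groups did not overlap for 9 members lower under the H3R17H label, where the same held for 15.6% of tested genes, and for 3 higher, where it held for 13.3%. Under the Carm1-/- label this held for 8 lower members, against 9.71% of tested genes, and for 1 higher, against 6.91%. With 3 libraries against 3 the smallest two-sided exact permutation p for a single gene is 0.1, so no such test could pass 0.05.

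Dsp, Epcam, Dsg2 and Prkci lay below all WT libraries in every library of both labels. Tjp1, Cdh1, Tjp3, Dlg1 and Dsc2 did so under the H3R17H label and Cldn7, Mpp5, Ocln and Marveld2 under the Carm1-/- label. For the 4 below WT under both labels the matching share of all tested genes was not computed, and both comparisons share the WT libraries. Above all WT libraries lay Rhoa, Llgl1 and Scrib under the H3R17H label and Cldn6 under the Carm1-/- label. Libraries carried unequal shares of this. H3R17H replicate 2 was the lowest of its group for 20 of 32 members, against 40.9% of tested genes, and Carm1-/- replicate 2 for 23, against 38.9%. Carm1-/- replicate 1 was the highest of its group for 25 members, against 36.9% of tested genes, and its member median was 0.06 above the WT mean on the log2 scale, while replicates 2 and 3 stood at -0.84 and -0.56. Without Carm1-/- replicate 1, 28 members were lower and 17 lay below all WT libraries, against 53.6% and 22.8% of tested genes. Without H3R17H replicate 2, 21 members were lower and 10 lay below all WT libraries, against 49.6% and 19% of tested genes. Under the H3R17H label the member medians were -0.42, -0.62 and -0.10. The trophectoderm marker median ran the same way across libraries, at -1.27, -1.69 and -0.52 under the H3R17H label and 0.20, -1.77 and -1.36 under the Carm1-/- label. This order was not particular to these markers. Further cortex and microvillus genes, listed below, had -0.56, -1.07 and -0.40, and 0.30, -1.22 and -0.76. Epiblast markers did not follow it under the Carm1-/- label, at -0.38, 0.34 and 0.01.

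**Figure D2:**
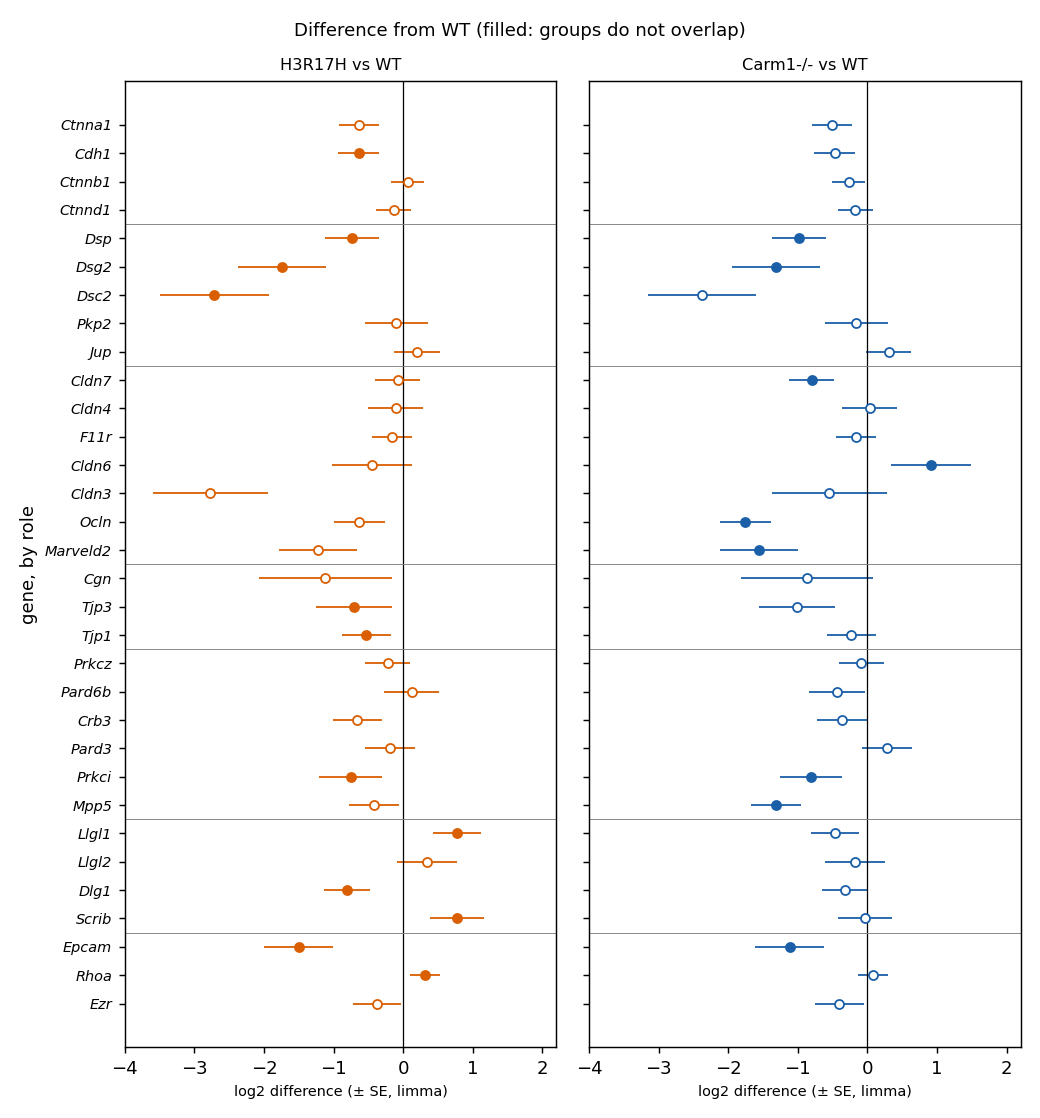
Log2 difference from WT (horizontal axis, point with SE from limma) for each gene (vertical axis, by role), H3R17H label on the left and Carm1-/- label on the right. Filled points mark genes whose 3 libraries do not overlap the 3 WT libraries, 12 on the left and 9 on the right. Of all tested genes, 15.6% were lower and 13.3% higher without overlap on the left, and 9.71% and 6.91% on the right. Most points lie left of 0, and Llgl1 and Scrib stand right of it on the left panel.

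The desmosome median log2 difference from WT was -0.74 under the H3R17H label and -0.98 under the Carm1-/- label. In the same fit the tight junction plaque stood close to it, at -0.70 and -0.87. Without Carm1-/- replicate 1 the plaque was the lower of the pair under the Carm1-/- label (-1.64 against -1.07). With a sex term the closeness did not hold, as the plaque medians were -0.15 and 0.09 and the desmosome medians -0.57 and -0.69. Dsc2 (chr18:20030633-20059554, GRCm38, minus strand) encodes desmocollin-2, a desmosomal cadherin, and had 3.46, 13.5 and 15.8 FPKM in WT. It was listed at 0, 1.03 and 0.898 FPKM under the H3R17H label and at 6.46, 0 and 0.0360 FPKM under the Carm1-/- label. All H3R17H libraries lay below WT, whereas Carm1-/- replicate 1 lay inside the WT range. The log2 difference was -2.71 (SE 0.78, adjusted p = 0.232, limma) for H3R17H and -2.38 (SE 0.78, adjusted p = 0.314, limma) for Carm1-/-. Dsc2 passed the H3R17H test when only the groups compared were fitted (adjusted p = 0.0425, limma; 2.03% of tested genes called) or without Carm1-/- replicate 1 (adjusted p = 0.0463, limma; 1.05% called), within a range of 0.0425 to 0.692 over all alternatives. Without Carm1-/- replicate 1 its Carm1-/- value was -3.34 (adjusted p = 0.0197, limma; 4.63% called).

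Dsg2 (chr18:20558074-20604521, plus strand) encodes desmoglein-2, the partner cadherin, and had 10.9, 10.9 and 11.8 FPKM in WT. Values were 3.28, 0.374 and 7.34 FPKM under the H3R17H label and 9.02, 1.76 and 3.27 FPKM under the Carm1-/- label. Every library of both labels lay below WT, with replicate 2 lowest in each. Log2 differences were -1.74 (SE 0.63, adjusted p = 0.285, limma) and -1.32 (SE 0.63, adjusted p = 0.456, limma). Dsc2 and Dsg2 lie on either side of a desmosomal cadherin cluster, 499 kb apart, with 6 protein-coding genes between them.

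Dsp (chr13:38151294-38198577, plus strand) encodes desmoplakin, which binds keratin, and varied little in WT at 20.4, 19.3 and 19.7 FPKM. It had 12.99, 6.19 and 18.4 FPKM under the H3R17H label and 10.9, 6.15 and 12.7 FPKM under the Carm1-/- label. All 6 lay below WT, and H3R17H replicate 3 came close to it. The log2 differences were -0.74 (SE 0.39, adjusted p = 0.411, limma) and -0.98 (SE 0.39, adjusted p = 0.392, limma). The other desmosome members, Pkp2 and Jup, are armadillo-repeat plaque proteins and overlapped WT under both labels, with means of 9.48 and 8.34 FPKM in WT, 9.57 and 9.96 FPKM under H3R17H and 9.26 and 10.9 FPKM under Carm1-/-. The cadherins and desmoplakin thus lay lower relative to WT than Pkp2 and Jup did, which was not tested as a difference between genes.

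**Figure D3:**
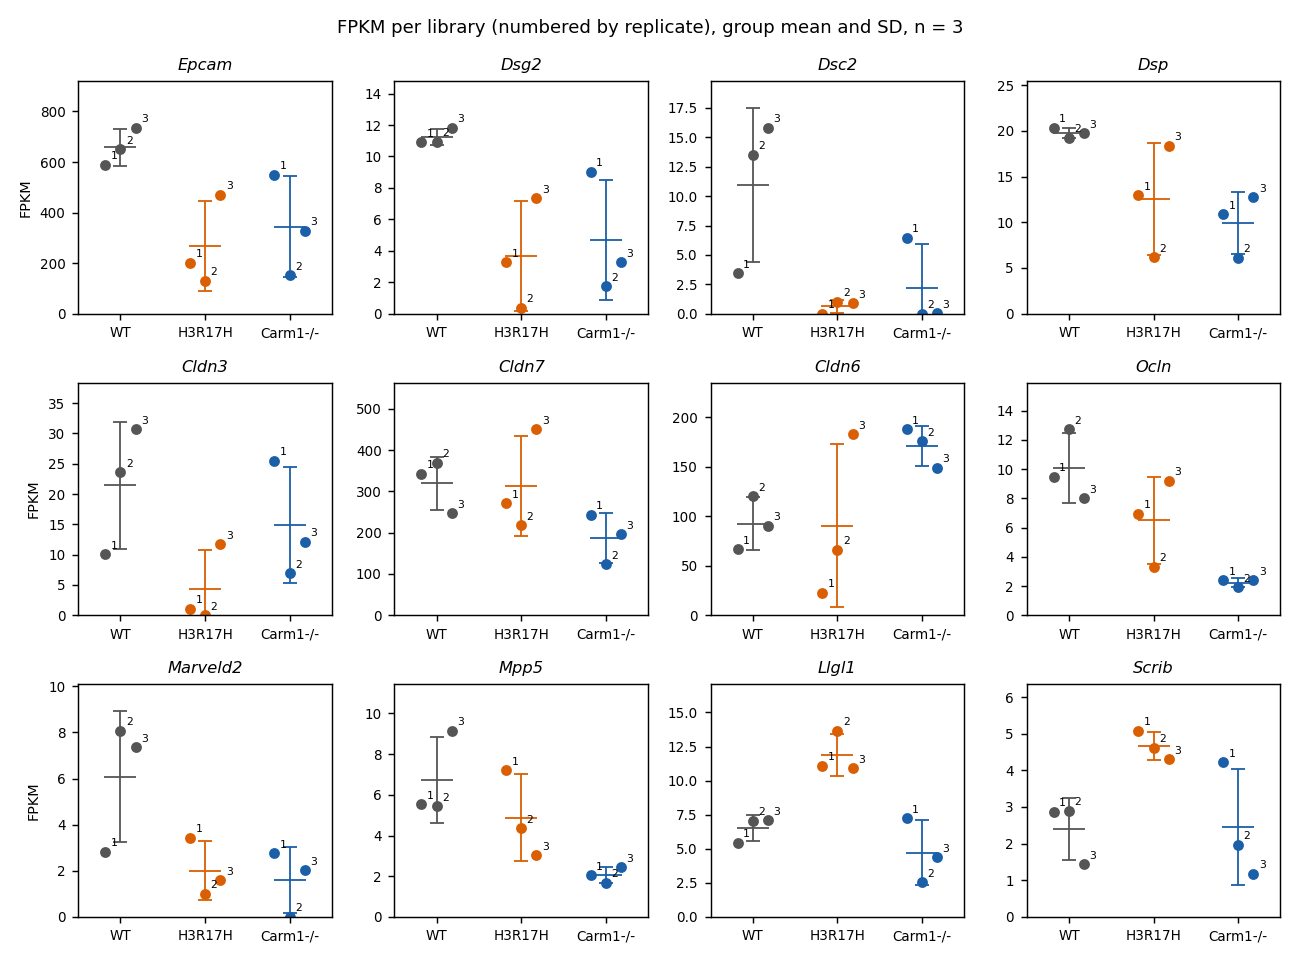
FPKM (vertical axis, linear from 0) of 12 members in each library, by label (horizontal axis); numbers mark the replicate and bars the mean and SD (n = 3). Dsg2, Dsp and Epcam lie below WT in all 6 libraries of the other labels, Ocln lies near 2 FPKM in the 3 Carm1-/- libraries, and Llgl1 and Scrib lie above WT under the H3R17H label.

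Adherens junction genes differed from WT by at most 0.64 in size on the log2 scale. Ctnna1 (chr18:35118859-35254779, plus strand) had 158, 157 and 229.7 FPKM in WT, 104, 87.6 and 165 FPKM under the H3R17H label and 159.6, 99.96 and 121 FPKM under the Carm1-/- label. H3R17H replicate 3 and Carm1-/- replicate 1 overlapped the WT range and the other 4 lay below it. Its log2 differences were -0.63 (SE 0.29, adjusted p = 0.353, limma) and -0.51 (SE 0.29, adjusted p = 0.501, limma).

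Cdh1 (chr8:106603351-106670246, plus strand), singled out after its values were seen, had 63.9, 73.6 and 65.7 FPKM in WT. Under the H3R17H label it had 45.2, 31.2 and 56.3 FPKM, all below WT, and under the Carm1-/- label 69.4, 36.3 and 45.3 FPKM, with replicate 1 inside the WT range. Log2 differences came to -0.64 (SE 0.29, adjusted p = 0.358, limma) and -0.47 (SE 0.29, adjusted p = 0.543, limma). Ctnnb1 and Ctnnd1, the beta- and p120-catenins, overlapped WT under both labels, with means of 71.6 and 12.8 FPKM under H3R17H and 56.8 and 12.3 FPKM under Carm1-/-, against 67.6 and 14.0 FPKM in WT.

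Among the tight junction membrane proteins, 7 of the members, 2 pairs of neighbouring genes can be compared. Cldn4 and Cldn3 sit 39.3 kb apart on chromosome 5 in opposite orientation, and Ocln and Marveld2 sit 43.2 kb apart on chromosome 13 on the same strand, with 0 protein-coding genes between them in either pair. The 250 bases before the start of each gene are given from RefSeq on GRCm38.p6, 5′ to 3′ on the gene's strand, because these neighbours are the members whose values are set side by side. Capitals mark a match to the KLF motif searched.
Cldn3 promoter, chr5:134985964-134986213, plus strand: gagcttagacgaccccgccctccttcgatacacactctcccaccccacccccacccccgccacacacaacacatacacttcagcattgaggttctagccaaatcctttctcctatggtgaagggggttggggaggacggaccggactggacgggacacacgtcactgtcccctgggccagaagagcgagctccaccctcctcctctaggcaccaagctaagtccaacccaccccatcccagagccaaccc
Cldn4 promoter, chr5:134946935-134947184, minus strand: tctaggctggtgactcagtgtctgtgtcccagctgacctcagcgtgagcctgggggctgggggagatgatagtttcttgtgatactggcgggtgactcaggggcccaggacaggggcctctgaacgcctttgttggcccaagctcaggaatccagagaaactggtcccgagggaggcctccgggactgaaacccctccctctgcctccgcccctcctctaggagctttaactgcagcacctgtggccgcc
Ocln promoter, chr13:100552719-100552968, minus strand: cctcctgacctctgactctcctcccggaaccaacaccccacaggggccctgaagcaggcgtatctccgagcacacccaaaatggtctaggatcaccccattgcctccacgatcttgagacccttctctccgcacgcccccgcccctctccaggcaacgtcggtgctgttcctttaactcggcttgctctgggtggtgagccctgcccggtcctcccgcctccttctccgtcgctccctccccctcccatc
Marveld2 promoter, chr13:100616972-100617221, minus strand: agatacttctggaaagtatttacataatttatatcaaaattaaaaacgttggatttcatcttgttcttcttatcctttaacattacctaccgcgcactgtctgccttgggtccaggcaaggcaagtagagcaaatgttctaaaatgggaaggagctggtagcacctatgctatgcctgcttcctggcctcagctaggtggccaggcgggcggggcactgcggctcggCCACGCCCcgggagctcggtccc
The Cldn3, Cldn4 and Ocln windows have 60.8%, 62% and 64% G and C, and the Marveld2 window 50.4%. The capitals in Marveld2 lie 23 to 16 bases before the start and read as the reverse complement of GGGCGTGG. That motif was found on either strand in 6 of the 38 windows of the 24 members with a window (15.8%), against 4.79% of 32851 windows of all genes, in Crb3, F11r, Marveld2 and Pard3. The TFAP2 motif GCCNNNGGC was in 11 member windows (28.9%, against 13.7%), the TEAD motif GGAATG in 3 (7.89%, against 12.6%) and the GRHL motif AACCNGTT in 1, that of Cgn (2.63%, against 1.79%). Ocln and Marveld2 have 2 windows each, of which 1 is printed. Both are among the genes with a TFAP2 match, which lies in the window not printed. A match describes letters in the window and not a bound site.

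Cldn3 (chr5:134986214-134987472) had 10.1, 23.6 and 30.7 FPKM in WT, 1.10, 0.0151 and 11.8 FPKM under the H3R17H label and 25.5, 6.97 and 12.2 FPKM under the Carm1-/- label. H3R17H replicates 1 and 2 lay far below WT, replicate 3 reached the lower WT value, and the Carm1-/- libraries overlapped WT. The log2 difference was -2.77 (SE 0.83, adjusted p = 0.237, limma) for H3R17H and -0.55 (SE 0.83, adjusted p = 0.824, limma) for Carm1-/-. Its neighbour Cldn4 overlapped WT under both labels, with means of 132, 125 and 148 FPKM in WT, H3R17H and Carm1-/-. The neighbours thus differed in size of difference under the H3R17H label, -2.77 against -0.11 (a sign that turned under some alternatives), which was not tested as a difference between genes.

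Ocln (chr13:100496507-100552718) encodes occludin, a strand protein of the tight junction, and had 9.47, 12.7 and 8.02 FPKM in WT. It had 6.94, 3.33 and 9.21 FPKM under the H3R17H label, where replicate 3 overlapped WT. Under the Carm1-/- label it had 2.41, 1.91 and 2.39 FPKM, a tight group far below WT that included replicate 1. On the log2 scale the differences were -0.63 (SE 0.37, adjusted p = 0.459, limma) and -1.76 (SE 0.37, adjusted p = 0.196, limma). Without Carm1-/- replicate 1 the Carm1-/- value was -1.80 and passed the test (adjusted p = 0.0431, limma; 4.63% of tested genes called), the lowest of a range that ran to 0.839.

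Marveld2 (chr13:100595957-100616971) encodes tricellulin, which seals the corners where 3 cells meet, and had 2.84, 8.07 and 7.35 FPKM in WT. Values were 3.44, 1.004 and 1.58 FPKM under the H3R17H label and 2.75, 0 and 2.04 FPKM under the Carm1-/- label. WT replicate 1 was itself low, so H3R17H replicate 1 overlapped WT and Carm1-/- replicate 1 lay just below it. The log2 differences were -1.22 (SE 0.56, adjusted p = 0.360, limma) and -1.56 (SE 0.56, adjusted p = 0.357, limma).

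Cldn7 (chr11:69964779-69967885, plus strand) had 343, 369 and 247 FPKM in WT, 271, 218 and 451 FPKM under the H3R17H label and 244, 123 and 197 FPKM under the Carm1-/- label. Only the Carm1-/- libraries all lay below WT, replicate 1 by a small margin. In limma the log2 differences were -0.08 (SE 0.32, adjusted p = 0.936, limma) and -0.80 (SE 0.32, adjusted p = 0.397, limma), and the H3R17H sign turned under some alternatives. Cldn6 (chr17:23679249-23682446, plus strand), a claudin of early embryos, went the other way. It had 66.8, 119.9 and 90.6 FPKM in WT, 22.7, 66.3 and 183 FPKM under the H3R17H label and 188, 176 and 149 FPKM under the Carm1-/- label. The 3 Carm1-/- libraries lay above WT and the H3R17H libraries spread across it. Set against WT, the log2 differences were -0.45 (SE 0.58, adjusted p = 0.749, limma), a sign that turned without H3R17H replicate 1, and 0.91 (SE 0.58, adjusted p = 0.545, limma). F11r, the junctional adhesion molecule JAM-A, overlapped WT under both labels with means of 126, 116 and 116 FPKM.

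At the tight junction plaque, where scaffolds bind the membrane proteins to actin, spread within WT was wide for Cgn. Cgn (cingulin, chr3:94760069-94786492, minus strand) had 10.3, 68.8 and 105 FPKM in WT, 25.3, 39.3 and 6.72 FPKM under the H3R17H label and 68.7, 22.2 and 7.42 FPKM under the Carm1-/- label. All groups overlapped, and the log2 differences of -1.12 (SE 0.95, adjusted p = 0.614, limma) and -0.87 (SE 0.95, adjusted p = 0.743, limma) were close to their errors. Tjp3 (ZO-3, chr10:81273207-81291581, minus strand) was singled out after its values were seen. It had 16.8, 11.9 and 12.5 FPKM in WT, 9.85, 5.08 and 9.81 FPKM under the H3R17H label and 17.9, 5.004 and 2.34 FPKM under the Carm1-/- label. H3R17H libraries all lay below WT and Carm1-/- replicate 1 lay above it. The log2 differences were -0.70 (SE 0.55, adjusted p = 0.579, limma) and -1.01 (SE 0.55, adjusted p = 0.493, limma). Without Carm1-/- replicate 1 the latter was -1.70 (adjusted p = 0.0437, limma), within a range of 0.0437 to 0.997. Tjp1 (ZO-1) had 6.24, 5.98 and 7.81 FPKM in WT and 4.67, 3.13 and 5.32 FPKM under the H3R17H label, all below WT, but 8.52, 3.46 and 5.43 FPKM under the Carm1-/- label, which overlapped it. Its log2 differences were -0.53 (SE 0.35, adjusted p = 0.513, limma) and -0.24 (SE 0.35, adjusted p = 0.822, limma).

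Under the Carm1-/- label the apical polarity gene with the widest difference was Mpp5 (chr12:78748907-78840714, plus strand), which encodes the Crumbs complex scaffold Pals1. It had 5.54, 5.44 and 9.15 FPKM in WT, 7.22, 4.37 and 3.03 FPKM under the H3R17H label and 2.04, 1.68 and 2.43 FPKM under the Carm1-/- label. As with Ocln, the 3 Carm1-/- libraries sat close together below WT, while H3R17H replicate 1 overlapped it. On the log2 scale the differences were -0.42 (SE 0.36, adjusted p = 0.615, limma) and -1.31 (SE 0.36, adjusted p = 0.266, limma). Prkci, the atypical protein kinase C that partners Par6, had 8.86, 9.14 and 9.67 FPKM in WT, 7.502, 5.83 and 2.82 FPKM under the H3R17H label and 7.65, 1.99 and 6.64 FPKM under the Carm1-/- label. All 6 lay below WT, with log2 differences of -0.76 (SE 0.45, adjusted p = 0.467, limma) and -0.81 (SE 0.45, adjusted p = 0.497, limma). Its paralogue Prkcz had 33.4, 26.6 and 32.7 FPKM in WT, 22.7, 21.4 and 36.8 FPKM under the H3R17H label and 39.3, 18.5 and 32.95 FPKM under the Carm1-/- label, overlapping throughout. Differences from WT were, in log2, -0.22 (SE 0.32, adjusted p = 0.782, limma) and -0.09 (SE 0.32, adjusted p = 0.940, limma), and the second sign turned under some alternatives. Pard3, Pard6b and Crb3 overlapped WT under both labels, with means of 11.2, 15.6 and 12.2 FPKM in WT, 10.1, 17.0 and 7.72 FPKM under H3R17H and 14.3, 12.7 and 9.62 FPKM under Carm1-/-.

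Basolateral genes were the role whose median lay above WT under the H3R17H label, at 0.56 on the log2 scale, and it stayed above 0 in every alternative (0.30 to 0.85). The per-library medians were 0.44, 0.58 and 0.56, above the WT libraries at -0.12, 0.17 and -0.14. Under the Carm1-/- label the median was -0.25. Llgl1 (chr11:60699723-60714186, plus strand), a Lgl homologue, had 5.44, 7.05 and 7.07 FPKM in WT, 11.1, 13.7 and 10.9 FPKM under the H3R17H label and 7.25, 2.54 and 4.37 FPKM under the Carm1-/- label. The H3R17H libraries lay above every other library. Log2 differences from WT were 0.78 (SE 0.35, adjusted p = 0.348, limma) and -0.47 (SE 0.35, adjusted p = 0.608, limma). Scrib (chr15:76047158-76069784, minus strand), the Scribble scaffold, was singled out after its values were seen and had 2.87, 2.89 and 1.43 FPKM in WT. It had 5.08, 4.62 and 4.31 FPKM under the H3R17H label and 4.22, 1.97 and 1.17 FPKM under the Carm1-/- label. Again the H3R17H libraries were higher than all others, with log2 differences of 0.77 (SE 0.39, adjusted p = 0.395, limma) and, with no stable sign, -0.04 (SE 0.39, adjusted p = 0.978, limma). Dlg1 (chr16:31663443-31875129, plus strand), the third scaffold of this side, went the other way at 3.79, 3.86 and 5.77 FPKM in WT, 2.98, 1.73 and 1.72 FPKM under the H3R17H label and 3.05, 2.70 and 4.39 FPKM under the Carm1-/- label. H3R17H libraries all lay below WT and Carm1-/- replicate 3 overlapped it. The log2 differences were -0.81 (SE 0.33, adjusted p = 0.326, limma) and -0.32 (SE 0.33, adjusted p = 0.727, limma). Llgl2 overlapped WT under both labels with means of 5.68, 7.23 and 5.36 FPKM.

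Of the surface and cortex members, Epcam (chr17:87635979-87651129, plus strand) had 590.0, 650.4 and 736 FPKM in WT. It had 202, 131 and 470.2 FPKM under the H3R17H label and 551, 152 and 328 FPKM under the Carm1-/- label. All 6 libraries lay below WT, replicate 2 lowest in each label, although H3R17H replicate 3 and Carm1-/- replicate 1 came nearest to it. Set against WT, the log2 differences were -1.50 (SE 0.50, adjusted p = 0.258, limma) and -1.12 (SE 0.50, adjusted p = 0.428, limma). As the most abundant member and 1 of the 4 below WT in both comparisons, its promoter window is given from the same RefSeq table (56.4% G and C).
Epcam promoter, chr17:87635729-87635978, plus strand: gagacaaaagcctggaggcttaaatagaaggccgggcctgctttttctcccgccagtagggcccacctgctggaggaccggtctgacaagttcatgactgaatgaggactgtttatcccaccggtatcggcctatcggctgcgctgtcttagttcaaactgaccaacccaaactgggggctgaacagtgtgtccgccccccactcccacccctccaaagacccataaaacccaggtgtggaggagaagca
None of the 4 motifs was found in this window. Rhoa, the small GTPase that drives actomyosin contraction, had 96.4, 100.2 and 87.6 FPKM in WT, 129, 123 and 101 FPKM under the H3R17H label and 100.01, 124 and 81.1 FPKM under the Carm1-/- label. H3R17H libraries all lay above WT, replicate 3 by little, with log2 differences of 0.31 (SE 0.21, adjusted p = 0.535, limma) and 0.08 (SE 0.21, adjusted p = 0.912, limma). Ezr, the microvillus linker ezrin, overlapped WT under both labels with means of 47.5, 36.9 and 36.2 FPKM. Tjp1, Prkci and Rhoa were likewise named after their values were seen.

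Compared with each other, the 2 edited labels were lower and higher in near-equal numbers of members, and the widest gaps were in Cldn3, Cldn6, Llgl1 and Ocln. Carm1-/- was lower than H3R17H for 17 members and higher for 15, against 51% of tested genes lower, and the median of -0.02 changed sign under 5 of 19 alternatives. At an unadjusted limma p under 0.05, 4 members were lower (4.12% of tested genes) and 2 higher (4.09%), and at the adjusted threshold 0 members and 0% of tested genes were called. Llgl1 (-1.25, SE 0.35, adjusted p = 0.414), Ocln (-1.13, SE 0.37, adjusted p = 0.483) and Mpp5 (-0.89, SE 0.36, adjusted p = 0.570) were lower in all Carm1-/- libraries than in all H3R17H libraries by limma, as was Scrib (-0.81, SE 0.39, adjusted p = 0.643). These are the 4 members without overlap, against 6.07% of tested genes lower in that way, and 0 members were higher without overlap, against 5.13%. Cldn7 (-0.72, adjusted p = 0.603), Cldn3 (2.22, adjusted p = 0.552) and Cldn6 (1.37, adjusted p = 0.581) overlapped between the labels in the same limma fit.

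Other genes of the same structures were counted from 8 lists, and 0 genes of any list passed the adjusted threshold. Gap junction genes, whose connexins link cells for exchange of small molecules, were lower under the H3R17H label in all 4 of those tested, each without overlap with WT, with a median of -1.15. Among all tested genes under that label 52.3% were lower and 15.6% were lower without overlap. Gjb5 had a mean of 62.4 ± 7.18 FPKM in WT and 24.2 ± 6.90 FPKM under the H3R17H label (SD, n = 3; log2 difference -1.36, SE 0.32, adjusted p = 0.212, limma). Under the Carm1-/- label its mean was 59.0 ± 21.7 FPKM (SD, n = 3), and the list median was -0.46.

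Of 13 further cortex and microvillus genes tested, 12 were lower under the H3R17H label, 8 without overlap (median -0.67), and 10 under the Carm1-/- label, 1 without overlap (median -0.66). The shares of all tested genes lower without overlap were 15.6% and 9.71%. Rdx, which encodes radixin, a relative of ezrin, had 24.5 FPKM in WT, 10.3 FPKM under H3R17H and 7.32 FPKM under Carm1-/- (log2 differences -1.33 and -1.62, adjusted p = 0.239 and 0.238, limma).

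Of 14 other tight junction genes tested, 8 were lower under the H3R17H label and 11 under the Carm1-/- label, with medians of -0.08 (-0.39 to -0.05 over the alternatives) and -0.57 (-0.94 without Carm1-/- replicate 1). Under the H3R17H label 6 were lower without overlap and 3 higher, against 15.6% and 13.3% of tested genes. Jam2, an adhesion molecule related to F11r, had 7.72 FPKM in WT and 1.53 FPKM under the H3R17H label (log2 difference -1.79, SE 0.44, adjusted p = 0.220, limma). Jam3 went the other way, at 1.91 FPKM in WT and 4.87 FPKM under the H3R17H label (log2 difference 1.03, SE 0.59, adjusted p = 0.454, limma). Ildr1, a protein of tricellular corners like Marveld2, had 7.77 FPKM in WT, 2.60 FPKM under H3R17H and 1.65 FPKM under Carm1-/- (log2 differences -1.48 and -2.01, adjusted p = 0.332 and 0.2997, limma).

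Of 15 other polarity genes tested, 9 and 11 were lower under the H3R17H and Carm1-/- labels. Epb41l5, a FERM protein that binds Crumbs, lay below WT in all libraries of both, at means of 11.7, 5.04 and 4.83 FPKM (log2 differences -1.08 and -1.22, adjusted p = 0.251 and 0.268, limma). Mark1 lay above WT in all libraries of both (log2 differences 0.52 and 0.71, adjusted p = 0.503 and 0.448, limma). Stk11 lay above WT in all Carm1-/- libraries, at a mean of 14.2 FPKM against 7.34 FPKM (log2 difference 0.88, adjusted p = 0.368, limma). Of 16 other adherens and nectin genes, 10 and 9 were lower, and Nectin4 was higher without overlap under both labels, at means of 1.21, 5.40 and 9.92 FPKM (log2 differences 1.35 and 1.86, adjusted p = 0.363 and 0.328, limma). Of 4 other desmosome genes, 2 and 3 were lower, with Pkp4 at means of 18.04, 9.40 and 10.5 FPKM (log2 differences -0.88 and -0.75, adjusted p = 0.248 and 0.376, limma). Among 12 epithelial regulators, 6 were lower and 6 higher under each label. Grhl1, a grainyhead-like factor of epithelial genes, had means of 5.28, 0.958 and 1.10 FPKM in WT, H3R17H and Carm1-/- (log2 differences -1.62 and -1.70, adjusted p = 0.226 and 0.266, limma), while its relative Grhl2 had 12.03 FPKM in WT and 16.4 FPKM under H3R17H (log2 difference 0.42, adjusted p = 0.514, limma). Of 10 mesenchymal genes listed 3 were tested, and Vim, an intermediate filament of mesenchymal cells, was at 0.809, 1.03 and 1.005 FPKM.

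**Figure D4:**
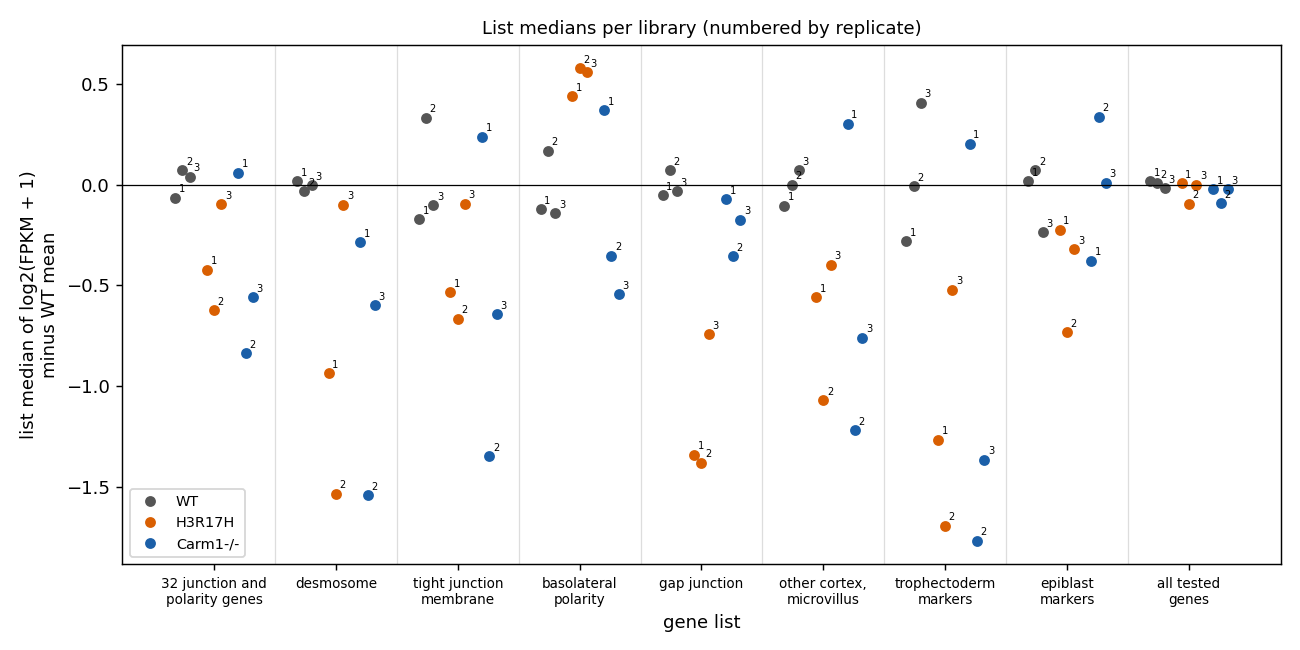
Median of log2(FPKM + 1) minus the WT mean (vertical axis) for 9 gene lists (horizontal axis), 1 point a library, numbered by replicate. All tested genes lie between -0.10 and 0.02 in every library, the 32 members between -0.84 and 0.07, and the trophectoderm markers between -1.77 and 0.41. Gap junction genes in the 3 H3R17H libraries lie below all others of that list.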

How the data were processed

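Gene-level values of 9 libraries were used as the authors deposited them, as FPKM in a single table. Per the submitters' processing notes, Bowtie 0.12.2 and, as builds, GRCm38 and mm10 were used in steps not described; quantifier and annotation are not stated in the sources used. Depth per library is unknown, because FPKM carries no counts and low values showed no steps of whole reads, so no interval from counting was possible. Columns were joined to samples through the sample descriptions, and groups are those of the titles.

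Values were analysed as log2(FPKM + 1), a scale that understates differences of low genes. One limma 3.58.1 fit with an intensity trend (R 4.3.3) took all 9 libraries with a mean per group, for the 11850 genes that reached 1 FPKM in 3 or more libraries, and gave 3 contrasts with two-sided p-values adjusted by Benjamini-Hochberg over all tested genes at 0.05. The script was tested on simulated data. Gene positions are from the GENCODE annotation of GRCm38. The members and lists were chosen with earlier results of these data known. Described in all libraries were members with an unadjusted p under 0.05 in any contrast, those without overlap and a log2 difference of at least 1, and the most abundant of each of 7 roles; of the other lists at most 4 genes with the smallest p and a mean of at least 1 FPKM per contrast could be named. Alternatives were pseudocounts of 0.1 and 5, other filters, scalings, weights, a sex term, a replicate block, the groups compared alone, and each library left out. The values of 1 gene of the other lists are not reported here.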

Additional observations from a re-analysis of the deposited data

How the results depend on the processing

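The fit as reported called 0 of 11850 genes in each comparison. For the H3R17H label against WT the count was 1 with a pseudocount of 5, 240 with only the groups compared, 192 with array weights, and 0 to 125 with each library left out. For Carm1-/- against WT it was 1 with a pseudocount of 0.1, 1 with array weights, and 0 to 549 with each library left out; between the edited labels it was 1 with a pseudocount of 0.1, 1 with 5, 2 with median-of-ratios scaling, 2 with quantile normalization, and 0 to 10 with each library left out. Members called were 1 with only the groups compared and 0 to 1 with each library left out for H3R17H, and 0 to 3 for Carm1-/-, where leaving out Carm1-/- replicate 1 gave the 3. Members below all WT libraries under the Carm1-/- label were 17 without Carm1-/- replicate 1, against 22.8% of tested genes. With all libraries they were 8, against 9.71% of tested genes. The cause of these changes was not tested.

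Over the alternatives the log2 difference crossed 0 for 9 of 32 members under the H3R17H label, for 11 under the Carm1-/- label, and for 17 in either comparison with WT. Those described library by library are given here. With a sex term the H3R17H values were 0.068 for Cldn7 and 0.13 for Tjp3, and the Carm1-/- values 0.029 for Prkcz, 0.092 for Cgn, 0.36 for Scrib and 0.092 for Tjp1; with array weights the latter were 0.028 for Prkcz and -0.066 for Rhoa. With each library left out, the H3R17H values ran from -1.19 to 0.29 for Cldn6 and -0.37 to 0.15 for Cldn7, and the Carm1-/- values from -0.30 to 0.22 for Prkcz, -0.39 to 0.25 for Scrib, -0.51 to 0.035 for Tjp1 and -0.069 to 0.23 for Rhoa. The sex term moved the member median to -0.11 for H3R17H and to -0.17 for Carm1-/-, and the median of the other cortex and microvillus genes to -0.34 and -0.27.

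Replicate numbers did not pair the libraries: same-numbered libraries correlated at -0.05 to 0.183 in their deviations from group means, and 4 of 18 best matches carried the same number. The fit with a replicate block called 0 genes and 0 members in each comparison. Depth is unknown, 3 libraries a group limit the precision, and in the edited groups only replicate 1 carries Y-linked transcripts.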
